A study of Mus musculus with 8 samples.

Results

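The data for 10 genes of the tumour necrosis factor (TNF) ligand and receptor superfamily were examined in mouse corneas with dry eye. These are 10 of the 23597 genes of the expression table, chosen by name as members of the family, and all were matched by symbol. They were the ligand genes Tnf and Tnfsf10 and the receptor genes Tnfrsf1a, Tnfrsf1b, Tnfrsf12a, Tnfrsf19, Tnfrsf21, Ltbr, Fas and Cd40. Messenger RNA was measured by RNA-seq in 8 libraries, each from 4 pooled corneas. All mice had dry eye from scopolamine, which blocks muscarinic receptors and so reduces tear secretion, and corneas were taken on injection day 14. In the 4 libraries called ICI the mice were also treated with ICI 118551, a selective antagonist of the β2-adrenergic receptor, and in the 4 called Scop they were not. The labels and design text used here do not give the strain, age and sex of the mice or what the Scop mice received in place of the antagonist. They also do not tie libraries to separate animals, and the p-values therefore cover the spread among 8 libraries, which may be technical. With no cornea free of dry eye among the samples, each value sets ICI against Scop.

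TNF superfamily ligands are trimers made by immune and epithelial cells, and most are anchored in the membrane until a protease sheds them. Their receptors carry cysteine-rich repeats outside the cell. Inside it, some hold a death domain that can start apoptosis through FADD and caspase 8, and others bind TRAF adaptors that lead to NF-kB. TNF is a known inflammatory cytokine of the ocular surface in dry eye.

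Values are FPKM (fragments scaled to gene length and library depth), so levels of different genes can be set side by side, but their order depends on the length used. The length implied by the values was 969 bases for Tnfrsf12a and 1786 for Cd40, where annotated exons cover 1932 and 3406. For Tnfrsf1b it was 4949 against 3818, and for Ltbr 2340 against 2354. The recovered depth was 34354346 to 39885822 fragments per library. Epithelial markers of the cornea were abundant, with the sum of Krt12, Krt5, Krt14, Pax6 and Aldh3a1 between 32793 and 37547 FPKM. Markers of immune cells were mixed. Of 10 macrophage and monocyte genes 7 had a mean above 0.5 FPKM, with Itgam at 21.9 to 28.8, Lyz2 at 10.6 to 21.8 and Cd68 at 8.47 to 11.5 FPKM, and the antigen presentation gene Cd74 was at 5.22 to 13.7. The leukocyte gene Ptprc lay between 0.0283 and 0.255 FPKM, all 6 T cell markers were under a mean of 0.5 FPKM, 1 of 6 listed neutrophil genes (S100a8, which epithelium also makes) was above that mean, and the Langerhans cell gene Cd207 was listed at 0 in every library. Scop replicate 3 stood apart. The sum of 6 keratocyte and stromal genes was 559 FPKM there and at least 1565 in every other library. The sum of 6 genes of stressed squamous epithelium was 3802, against 2426 to 2667 in ICI and 2334 or more in the other Scop libraries. Of these genes, Krt16 and Sprr1a were also high in Scop replicate 4, at 46.7 and 32.9 FPKM, against at most 14.4 and 17.4 in ICI. Krt6b, at 1095 there, was within the ICI range. Conjunctival markers (Krt13, Krt4 and Krt19) were present in every library, with a sum of 1114 to 1857 FPKM that was highest in Scop replicate 3. The ribosomal RNA locus Gm26917 split the libraries in another way, at 3666 to 3836 FPKM in ICI, 689, 912 and 1120 in Scop replicates 1 to 3 and 4936 in Scop replicate 4. It thus moved with the groups except in that library, and its part in the differences between ICI and Scop given here was not tested.

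The members spanned more than 2 orders of magnitude in level. Tnfrsf1a, the receptor through which soluble TNF acts in most cells, was the highest, and Tnfrsf1b, the second TNF receptor, which prefers membrane-bound TNF and is typical of leukocytes, was the lowest. In the 8 libraries Tnfrsf1a exceeded Tnfrsf1b by 133 to 421 times, with a median of 197. Below Tnfrsf1a, by 1.76 to 2.64 times, came Tnfrsf12a, the receptor of TWEAK that wounding induces in epithelia. Tnfrsf21, a death domain receptor also called DR6, and Ltbr, the lymphotoxin β receptor, followed. The ranges of these 3 overlapped, and their order held in 6 of 8 libraries between Tnfrsf12a and Tnfrsf21 and in 7 of 8 between Tnfrsf21 and Ltbr. A gap without overlap lay between Ltbr and Tnf, with Ltbr higher by 2.31 to 5.96 times. Tnf, Cd40, Tnfrsf19, Tnfsf10, Fas and Tnfrsf1b then followed with each neighbour overlapping the next.

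**Figure D1:**
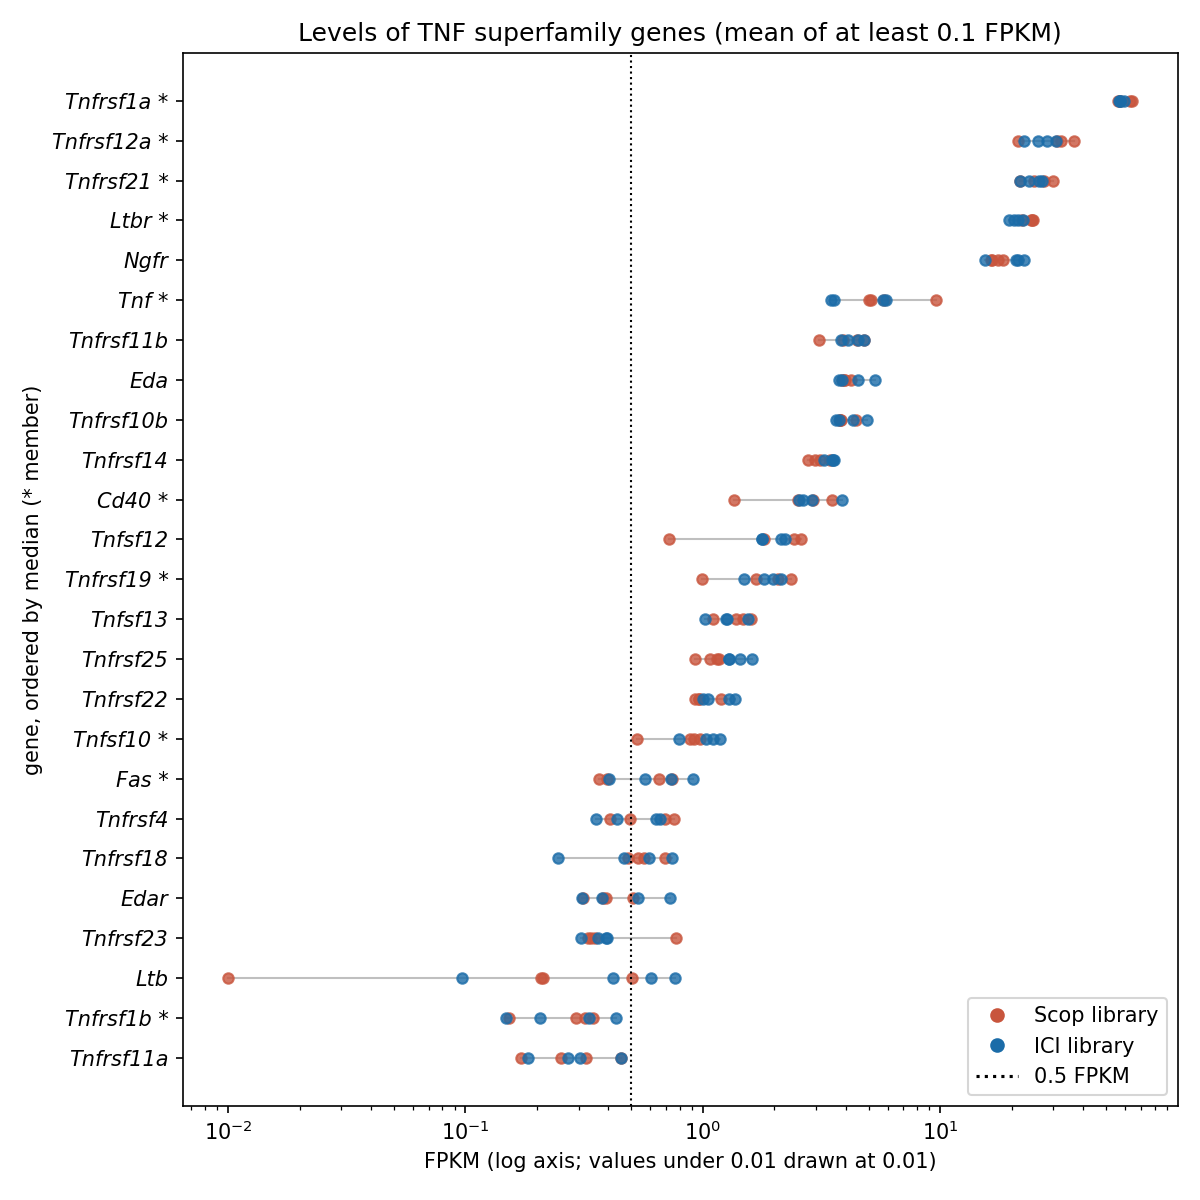
FPKM on a log axis of the TNF superfamily genes whose mean reached 0.1 FPKM, ordered by median. Each point is a library (red Scop, blue ICI), asterisks mark the 10 members and the dotted line is 0.5 FPKM, the mean needed for the test. Tnfrsf1a stands alone at the top, and Tnfrsf1b lies below the line in all 8 libraries.

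The fit over the table called none of the members. Of the 9 whose mean reached 0.5 FPKM, 0 passed limma's test at an adjusted p under 0.05, as did 0% of all 12100 genes tested in each direction. An unadjusted p under 0.05 was found for 1 of the 9 members, where 12% of all genes had one. That 1 was lower in ICI (Ltbr), as were 7.46% of all genes, and 0 were higher, as were 4.56%. None of the 9 had ICI and Scop values that did not overlap, where 6.98% of all genes had. Limma-voom on the recovered fragments gave the same counts for the 9. The median log2 difference of the 9 members was -0.06, with 5 negative and 4 positive values, and that of all tested genes was -0.02. Over all genes, unadjusted calls were 552 higher and 903 lower, against 728 and 717 after quantile normalisation and 734 and 676 after median-ratio scaling. The signs of the members were 5 and 4 under both.

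**Figure D2:**
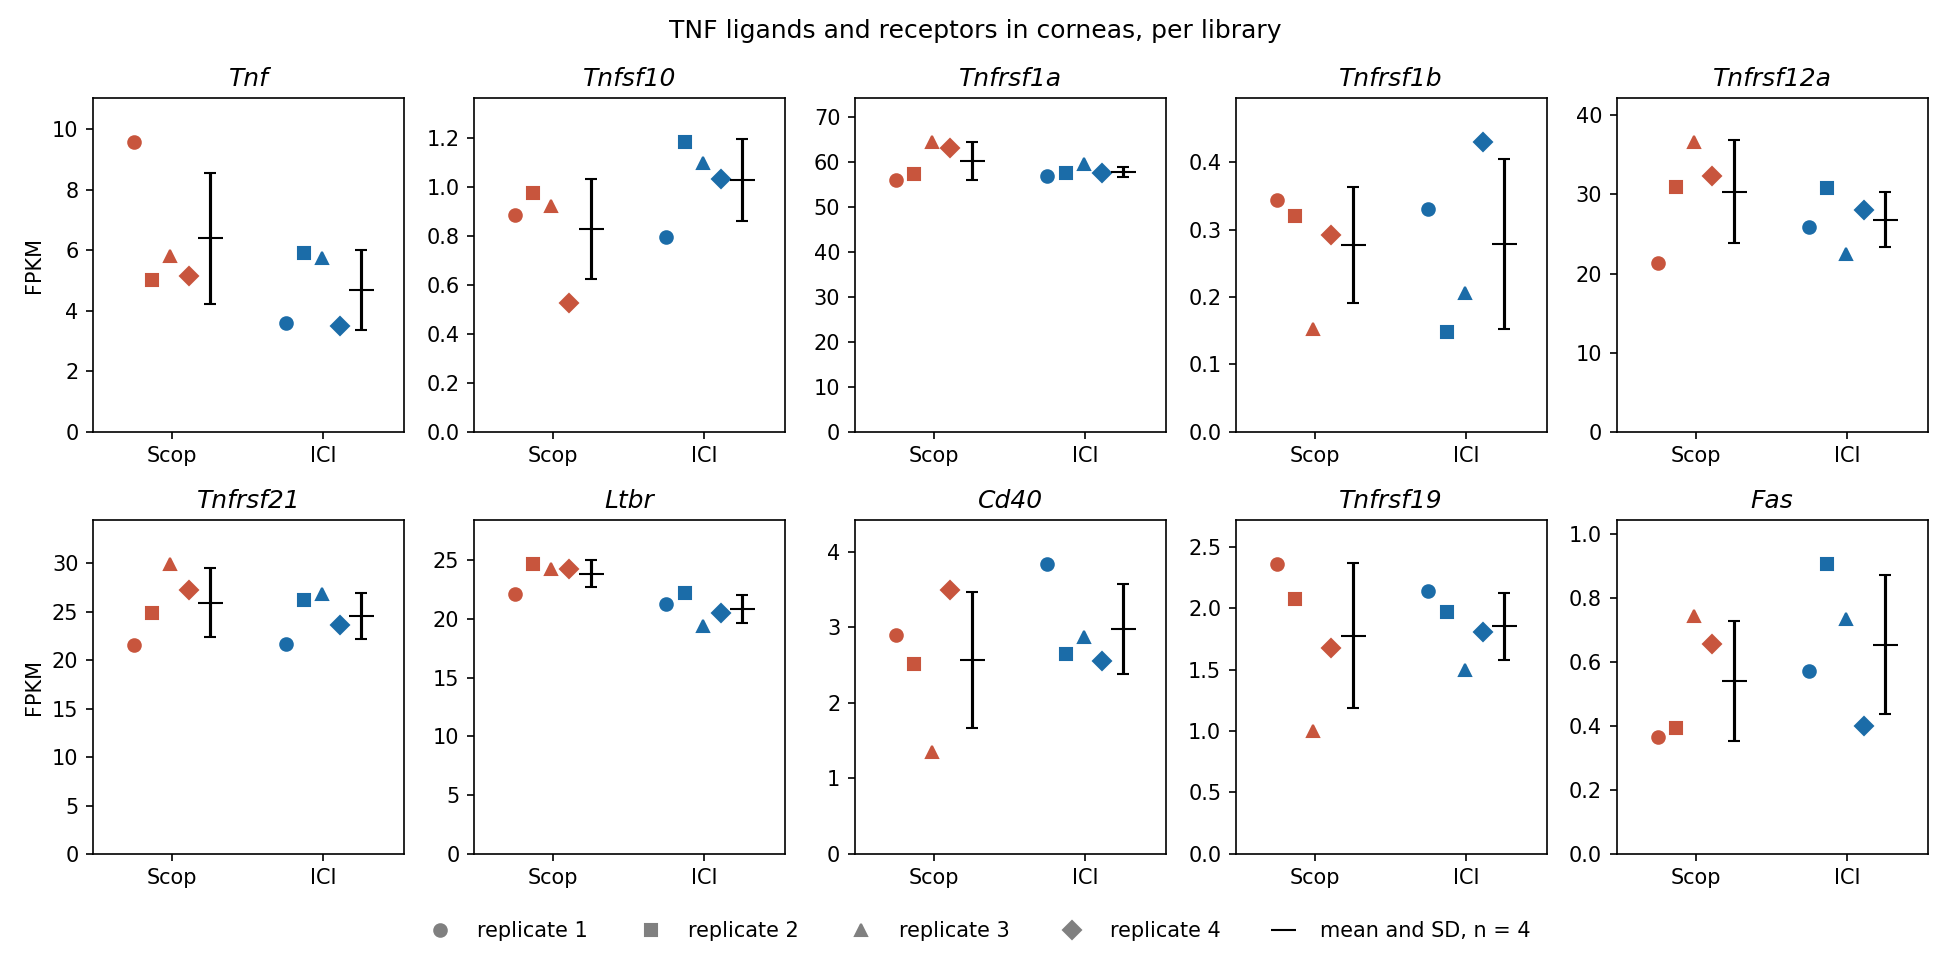
FPKM of the 10 members in each library, with axes from 0. Marker shapes give the replicate number and the black bar the mean and SD of 4 libraries. Tnf is highest in Scop replicate 1 at 9.59 FPKM, and Cd40 and Tnfrsf19 are lowest in Scop replicate 3, at 1.35 and 0.996.

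The ligand gene Tnf encodes the founding cytokine of the family (chromosome 17, 35199367 to 35202007 of GRCm38, the mm10 build, minus strand). It stood at 3.58, 5.90, 5.73 and 3.48 FPKM in ICI replicates 1 to 4 and at 9.59, 5.01, 5.82 and 5.13 in Scop replicates 1 to 4. The group means were 4.67 ± 1.32 and 6.39 ± 2.16 FPKM (mean ± SD, n = 4 each, as below). The ICI libraries fell into a low pair and a pair within the Scop range, and Scop replicate 1 was well above every other library. The difference, ICI minus Scop, was -0.37 on the log2(FPKM + 1) scale (SE 0.20, 95% interval -0.83 to 0.09, limma's adjusted p = 0.508). Differences of all genes are on this scale, which understates those of low genes, and the intervals are not adjusted for the number of genes. The values rested on 217 to 635 fragments, for which counting alone gives a coefficient of variation of about 5.34%, and the spread among libraries was 28.2% in ICI and 33.9% in Scop. Without Scop replicate 1 the Scop mean was 5.32 FPKM and the difference -0.18.

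Tnf is best known from macrophages. The summed level of the 10 macrophage and monocyte genes was 57.8 to 63.8 FPKM in ICI and 48.4 to 68.2 in Scop. The sum was highest in Scop replicate 1, the library with the most Tnf. Lyz2, Csf1r, Tyrobp, Ptprc and Adgre1 were each highest there. The rest were not: Itgam and Cd68 were highest in ICI replicate 1, Cx3cr1 in ICI replicate 2, Fcer1g in ICI replicate 4 and Cd14 in Scop replicate 4. Within ICI the sum was highest in replicate 1 (63.8 FPKM), where Tnf, at 3.58 FPKM, was in the low pair. Of the 10, Ptprc, Adgre1 and Cx3cr1 were under a mean of 0.5 FPKM and the other 7 were above it. The part of these cells in the Tnf values was not tested, and in pooled tissue fewer cells of a type cannot be told apart from less RNA per cell.

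The 250 bases before the start of Tnf are shown beside those of Tnfrsf12a and Tnfrsf1a, because these were the ligand with the widest spread, a wound-induced receptor and the steadiest of the members. They are from RefSeq (GRCm38.p6), which gave promoters for 9 of the 10 members. Capitals mark TATAAA and GGGCGG on either strand.
Tnf, chr17:35202008-35202257, minus strand: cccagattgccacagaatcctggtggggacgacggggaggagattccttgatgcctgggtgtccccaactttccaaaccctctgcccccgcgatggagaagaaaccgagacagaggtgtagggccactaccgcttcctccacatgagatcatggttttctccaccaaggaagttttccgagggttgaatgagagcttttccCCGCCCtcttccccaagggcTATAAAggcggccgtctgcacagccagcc
Tnfrsf12a, chr17:23677450-23677699, minus strand: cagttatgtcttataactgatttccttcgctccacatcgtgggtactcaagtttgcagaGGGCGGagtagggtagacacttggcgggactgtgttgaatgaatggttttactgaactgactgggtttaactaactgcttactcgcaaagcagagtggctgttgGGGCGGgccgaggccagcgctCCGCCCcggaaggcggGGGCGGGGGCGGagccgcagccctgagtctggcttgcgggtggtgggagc
Tnfrsf1a, chr6:125349473-125349722, plus strand: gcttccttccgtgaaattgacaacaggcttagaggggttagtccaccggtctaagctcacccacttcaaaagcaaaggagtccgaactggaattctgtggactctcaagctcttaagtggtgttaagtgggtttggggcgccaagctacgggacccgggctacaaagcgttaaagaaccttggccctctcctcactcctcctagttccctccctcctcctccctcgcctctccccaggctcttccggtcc
TATAAA, the core of a TATA box, was found in Tnf alone of the 9, starting at position -29, counted back from -1 at the base before the start. It occurs in 12.4% of all 32851 promoter windows of that length. GGGCGG, the GC box, was found once in Tnf, 5 times in Tnfrsf12a and not in Tnfrsf1a, and it occurs in 32.7% of windows. The NF-kB consensus was searched on both strands as well and had no match in the windows of these 9 genes, where 7.25% of all windows had one. These are matches of letters only.

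Tnfsf10 encodes TRAIL, a ligand that can kill cells through death receptors (chromosome 3, 27317077 to 27339665, plus strand). It was at 0.796, 1.19, 1.10 and 1.03 FPKM in ICI and 0.883, 0.976, 0.9202 and 0.527 in Scop, replicates 1 to 4. ICI replicates 2 to 4 were above all Scop libraries, ICI replicate 1 was within them, and Scop replicate 4 was the lowest of the 8. The difference was 0.15 (SE 0.10, 95% interval -0.08 to 0.39, limma's adjusted p = 0.585), and 0.07 without Scop replicate 4. Its receptor gene Tnfrsf10b was higher than the ligand in every library, at 3.63 to 4.90 FPKM.

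Of the 2 TNF receptors, Tnfrsf1a (chromosome 6, 125349723 to 125362483, plus strand) showed the narrowest range. It was at 56.8, 57.4, 59.4 and 57.4 FPKM in ICI and at 55.9, 57.3, 64.4 and 63.0 in Scop. Scop replicates 3 and 4 were the highest of the 8, Scop replicate 1 the lowest, and Scop replicate 2 lay within the ICI range. The difference was -0.06 (SE 0.05, limma's adjusted p = 0.706), with a 95% interval of -0.18 to 0.06, or ratios of 0.884 to 1.05. It was -0.09 without Scop replicate 1 and -0.02 without Scop replicate 3. The receptor rested on 4659 to 5038 fragments. Tnfrsf1b (chromosome 4, 145212368 to 145246870, minus strand) was under the filter and had no test in this fit. It was at 0.330, 0.149, 0.206 and 0.431 FPKM in ICI and 0.344, 0.3197, 0.153 and 0.293 in Scop, on 26 to 80 fragments. Means of 0.279 ± 0.126 and 0.277 ± 0.0857 FPKM differed by less than the spread within each group.

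Ltbr, which signals to the non-canonical NF-kB arm, lies near Tnfrsf1a (chromosome 6, 125306571 to 125313885, minus strand), with 35837 bases between them. It was at 21.3, 22.25, 19.4 and 20.5 FPKM in ICI and at 22.16, 24.7, 24.3 and 24.2 in Scop. The groups were apart except for ICI replicate 2, which was just above Scop replicate 1. The means were 20.9 ± 1.21 and 23.8 ± 1.14 FPKM and the difference -0.18 (SE 0.06, 95% interval -0.31 to -0.05). This member had the smallest unadjusted p (0.00990 by limma) and an adjusted p of 0.291, so it did not pass.

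Tnfrsf12a encodes Fn14, a small receptor without a death domain (chromosome 17, 23675445 to 23677449, minus strand). It was at 25.9, 30.8, 22.5 and 28.1 FPKM in ICI and at 21.3, 31.0, 36.7 and 32.4 in Scop. Scop replicate 1 was the lowest of all 8 and Scop replicate 3 the highest, so the Scop libraries enclosed the ICI range. The difference was -0.15 (SE 0.15, 95% interval -0.49 to 0.18, limma's adjusted p = 0.710), and -0.31 without Scop replicate 1 and -0.06 without Scop replicate 3. The annotated range of this gene overlaps that of Hcfc1r1, and as the strandedness of the libraries is not given in the sources used here, reads of the shared part could belong to either gene.

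Tnfrsf21 and Fas both carry a death domain, and they differed widely in level. Tnfrsf21 (chromosome 17, 43016555 to 43089188, plus strand) was at 21.7, 26.2, 26.8 and 23.7 FPKM in ICI and 21.6, 24.9, 30.0 and 27.2 in Scop. Fas, the classical death receptor (chromosome 19, 34290647 to 34327775, plus strand), was at 0.570, 0.907, 0.736 and 0.401 FPKM in ICI and 0.367, 0.394, 0.745 and 0.656 in Scop. In both genes the groups overlapped over most of their range. The difference was -0.07 for Tnfrsf21 (SE 0.10, 95% interval -0.29 to 0.15, limma's adjusted p = 0.807), and it ran from -0.15 without Scop replicate 1 to 0.0019 without Scop replicate 3. For Fas it was 0.10 (SE 0.12, 95% interval -0.17 to 0.37, limma's adjusted p = 0.768), on 36 to 88 fragments, and it ran from 0.03 without ICI replicate 2 to 0.18 without ICI replicate 4.

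Cd40, the costimulatory receptor of antigen-presenting cells, is also made by epithelium and fibroblasts (chromosome 2, 165055614 to 165071654, plus strand). It was at 3.84, 2.64, 2.87 and 2.55 FPKM in ICI and 2.91, 2.51, 1.35 and 3.49 in Scop, so that the highest library was ICI and the lowest Scop, with the others mixed. Tnfrsf19, also called TROY (chromosome 14, 60963834 to 61046855, minus strand), was at 2.14, 1.97, 1.497 and 1.80 FPKM in ICI and 2.36, 2.07, 0.996 and 1.67 in Scop, which enclosed the ICI values. The differences were 0.19 for Cd40 (SE 0.18, 95% interval -0.22 to 0.59) and 0.06 for Tnfrsf19 (SE 0.15, 95% interval -0.28 to 0.40), with adjusted p = 0.714 and 0.897 by limma. Both turned slightly negative without Scop replicate 3, to -0.0017 and -0.09, and were largest at 0.31 without Scop replicate 4 for Cd40 and 0.16 without Scop replicate 1 for Tnfrsf19. Tnfrsf19 shares part of its annotated range with the predicted gene Gm41167.

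**Figure D3:**
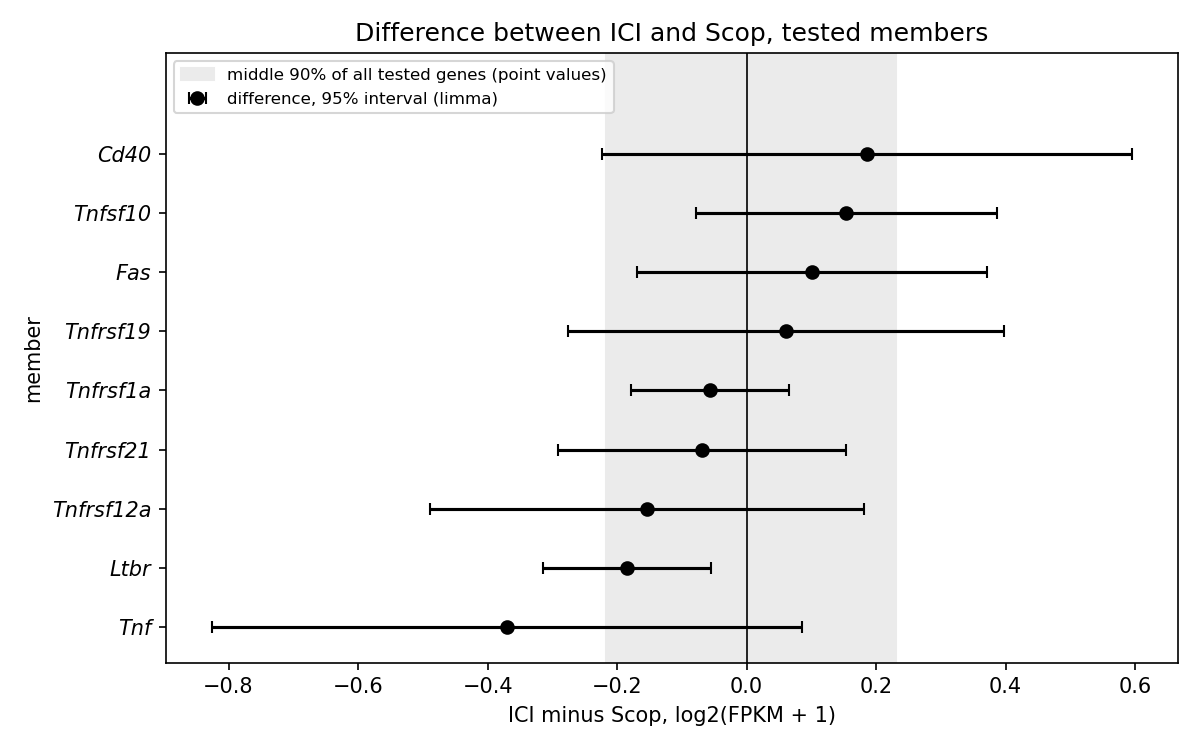
Difference between ICI and Scop of the 9 tested members on the log2(FPKM + 1) scale, with limma's 95% interval. The grey band holds the middle 90% of point values of all tested genes. The interval of Ltbr lies below 0 before adjustment, the other 8 intervals include 0, and Tnfrsf1a has the narrowest.

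Among libraries, the members took different directions in Scop replicate 3. Cd40, Tnfrsf19 and Tnfrsf1b stood there at 47.1%, 50.6% and 47.8% of the median of the other 7 libraries. Tnfrsf1b, on 26 fragments there, was slightly lower in ICI replicate 2 (0.149 against 0.153 FPKM). Tnfrsf12a, Tnfrsf21 and Tnfrsf1a stood at 131%, 120% and 112%, the highest values of the 8. Fas, Tnf, Ltbr and Tnfsf10 stood at 131%, 113%, 110% and 94.3%, and each had its highest and lowest values in other libraries. Scop replicate 3 is the library in which the keratocyte genes Kera, Lum and Dcn were lowest and the stress keratin gene Krt16 and the envelope gene Sprr1a were highest. The part of stromal and epithelial content in these values was not tested. Scop replicate 1 was the opposite for the same 3 abundant receptors, with the lowest Tnfrsf1a, Tnfrsf12a and Tnfrsf21 of all libraries, and it had the highest Tnf and Tnfrsf19.

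**Figure D4:**
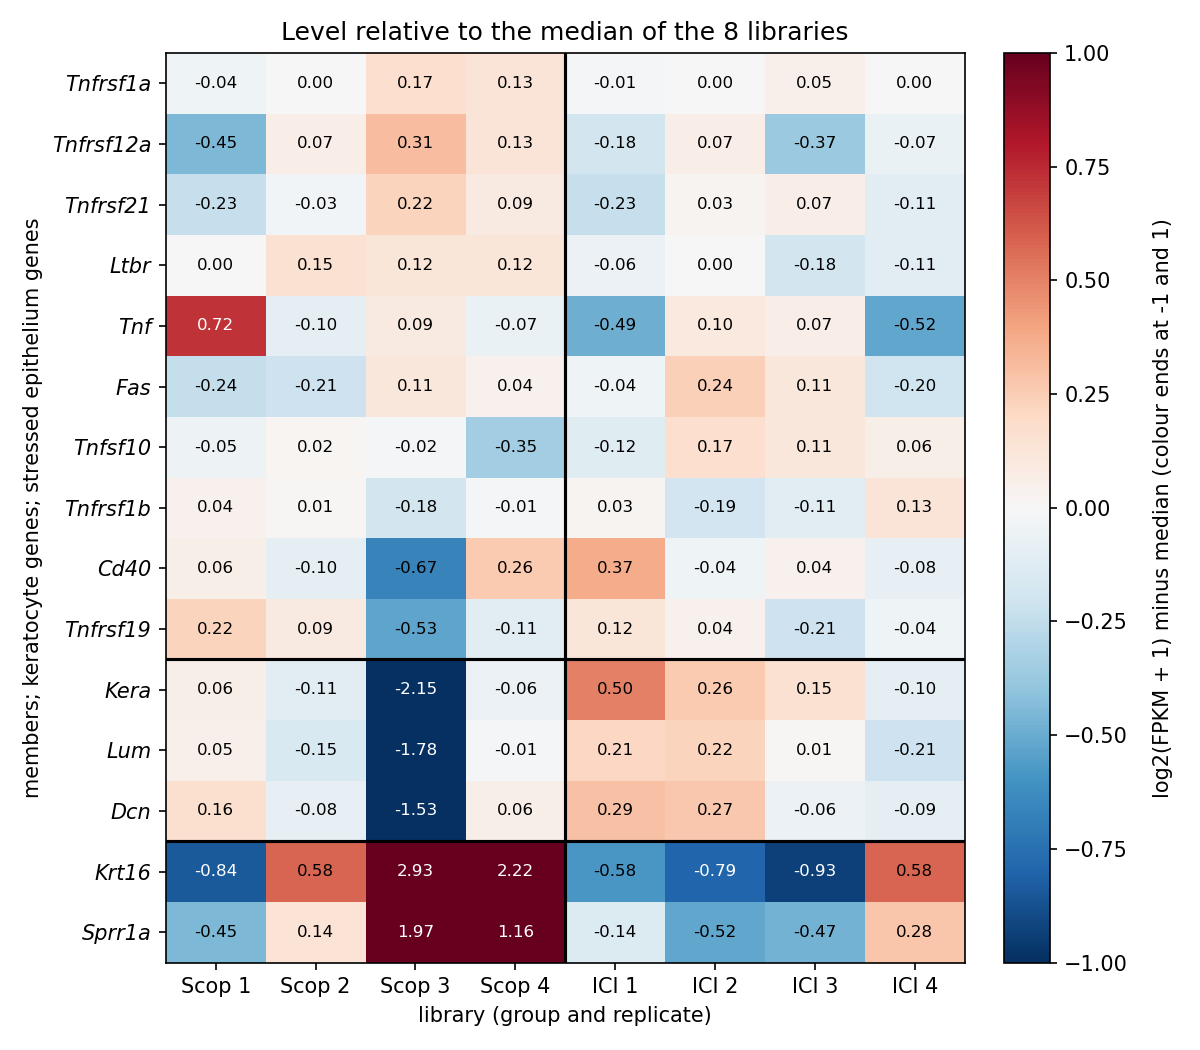
Level of the 10 members and of 5 marker genes in each library, as log2(FPKM + 1) minus the median of the 8 libraries, with the value in each cell. In Scop replicate 3 Cd40 and Tnfrsf19 are at -0.67 and -0.53 and Kera at -2.15, while Tnfrsf12a is at 0.31 and Krt16 at 2.93.

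Genes with the most similar pattern over the 8 libraries were picked by Pearson's r of log2(FPKM + 1), as a description. For Tnfrsf1a they were Tgm1, the transglutaminase of the cornified envelope (r = 0.977), Stom, a membrane scaffold gene (0.975), and Xpnpep1, an aminopeptidase gene (0.959). For Tnf they were Ldah (0.933), Cpd (0.926) and Tmtc2 (0.925), but the rank correlation of Ldah with Tnf was 0.5. For Tnfrsf12a they were Zfand2b (0.938), Cox6a1 (0.926) and Sys1 (0.922), and for Tnfrsf1b Pank2 (0.956), Emx2 (0.947) and Klhl9 (0.941). Rank correlations of the other genes named here ran from 0.738 for Tmtc2 with Tnf to 1 for Emx2 with Tnfrsf1b. Tnfrsf1b itself was under the filter, on 26 to 80 fragments. The highest of 12100 values of r over 8 libraries are large by selection.

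Most other ligand genes of the family were at or near 0. Of 16 listed, 13 were matched, 10 of these had a mean under 0.5 FPKM, and Tnfsf11 was listed at 0 in every library. Cd70, Tnfsf14 and Cd40lg were not matched, so nothing can be said of their levels. Eda, the ectodysplasin ligand, was at 3.75 to 5.32 FPKM, Tnfsf12, which encodes TWEAK, at 0.718 to 2.59 and Tnfsf13, which encodes APRIL, at 1.02 to 1.59. Tnfrsf12a and Ltbr, the receptors of TWEAK and of lymphotoxin β, were at 21.3 and 19.4 FPKM or more in each library. Ltb and Lta, whose products bind Ltbr, flank Tnf on chromosome 17 with gaps of 3061 and 1157 bases. They reached at most 0.761 and 0.156 FPKM, and each was listed at 0 in 1 library. Fasl, the ligand of Fas, did not exceed 0.0774 FPKM. Tnfsf12 was lowest in Scop replicate 3, like Cd40 and Tnfrsf19.

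Of 20 other receptor genes, all matched, 8 were tested, and 0 passed limma's adjusted test (at an unadjusted p under 0.05, 1 was higher and 0 lower, against 4.56% and 7.46% of all genes). Ngfr, the low-affinity neurotrophin receptor, was the most abundant, at 15.5, 22.6, 20.9 and 21.2 FPKM in ICI and 16.5, 16.4, 18.4 and 17.5 in Scop. Tnfrsf11b, the decoy receptor osteoprotegerin, was at 3.08 to 4.79 FPKM and Tnfrsf10b, a TRAIL receptor, as above. Tnfrsf25, the death domain receptor DR3, was the 1 gene of the 8 without overlap, at 1.29, 1.44, 1.61 and 1.28 FPKM in ICI and 1.17, 1.149, 1.072 and 0.928 in Scop. Its difference was 0.21 (SE 0.08, limma's adjusted p = 0.341), on 85 to 161 fragments, and 2.63% of all genes had ICI values that were all higher.

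Downstream of the receptors, 20 of 21 adaptor and kinase genes leading to NF-kB were tested and 0 passed after adjustment by limma, with 1 higher and 3 lower at an unadjusted p under 0.05, where 4.56% and 7.46% of all genes were. Their median was -0.05, with 17 of 20 values negative, as were 6709 of the 12100 genes tested. Traf5, Rbck1 and Chuk, an adaptor, a subunit of the linear ubiquitin ligase and an IkB kinase, were the most abundant, at 14.2 to 19.9, 17.0 to 20.7 and 11.8 to 15.0 FPKM. Of the 20, 2 genes did not overlap between the groups, both lower in ICI, where 4.36% of all genes were. Birc3, an inhibitor of apoptosis that ubiquitinates Ripk1, was at 2.57, 3.26, 3.10 and 2.65 FPKM in ICI and 3.76, 4.34, 4.16 and 4.28 in Scop. Ripk1, the kinase that docks to the TNF receptor, was at 2.79, 2.62, 2.69 and 2.89 against 3.34, 3.29, 3.18 and 3.15 FPKM. Their differences were -0.40 (SE 0.08) and -0.18 (SE 0.06), with limma's adjusted p = 0.162 and 0.316.

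In the death receptor arm all 13 genes were tested and 0 passed after adjustment by limma, with 2 higher and 1 lower at an unadjusted p under 0.05 (4.56% and 7.46% of all genes) and a median of -0.04. Of the 13, 1 was higher in ICI and 1 lower without overlap, where 2.63% and 4.36% of all genes were. The lower one was the adaptor gene Fadd, at 8.66, 7.16, 8.13 and 8.50 against 9.51, 9.37, 9.31 and 10.1 FPKM. Its difference was -0.22 (SE 0.07, limma's adjusted p = 0.282). Casp8, the initiator caspase that it recruits, was at 14.6 ± 1.18 against 14.5 ± 0.778 FPKM, and Otulin, a deubiquitinase that restrains the pathway, at 14.7 ± 1.05 against 16.2 ± 1.19.

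Shedding of TNF and its receptors depends on the protease ADAM17. Of 6 genes in this list 0 passed, and 0 had an unadjusted p under 0.05 by limma (median 0.02). Adam17 and the related Adam10 were at 22.7 ± 1.38 against 24.6 ± 1.87 and 22.8 ± 0.868 against 24.3 ± 1.10 FPKM. Timp3, the tissue inhibitor of ADAM17, was at 81.1, 31.0, 32.1 and 32.6 FPKM in ICI and 53.1, 39.2, 22.9 and 27.6 in Scop. ICI replicate 1 and Scop replicate 1 were the highest, as they were for the sum of 4 genes of corneal endothelium (189 and 141 FPKM), and the part of that layer was not tested.

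The 10 regulators of TNF mRNA stability gave 0 calls after adjustment by limma, with 1 higher and 3 lower at an unadjusted p under 0.05 (4.56% and 7.46% of all genes) and a median of -0.05. Of the 10, 2 did not overlap, both lower in ICI, where 4.36% of all genes were. Zfp36, which encodes tristetraprolin, a protein that speeds decay of Tnf mRNA, was at 121, 80.5, 65.2 and 53.8 FPKM in ICI and 61.3, 56.3, 62.4 and 49.3 in Scop. ICI replicates 1 to 3 were above all Scop libraries and ICI replicate 4 within them (difference 0.41, SE 0.20, limma's adjusted p = 0.453). Its relatives Zfp36l1 and Zfp36l2 were at 108 ± 9.04 against 91.8 ± 9.55 and 47.4 ± 1.42 against 45.6 ± 2.77 FPKM. Zc3h12a, the RNase Regnase-1, was lower in ICI without overlap, at 10.7, 9.27, 9.37 and 8.93 against 10.9, 14.3, 14.9 and 12.4 FPKM (difference -0.41, SE 0.10, limma's adjusted p = 0.185). Elavl1, which encodes the stabilising protein HuR, was lower in the same way, at 12.7, 10.99, 13.7 and 13.9 against 15.6, 15.5, 14.3 and 15.2 FPKM (difference -0.23, SE 0.07, limma's adjusted p = 0.296).

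Genes known to respond to TNF and NF-kB were tested for 20 of 25, with 0 passing after adjustment by limma and 1 higher and 6 lower at an unadjusted p under 0.05 (4.56% and 7.46% of all genes). Their median was -0.11, against -0.02 for all genes, and 7 did not overlap between the groups, all lower in ICI, where 4.36% of all genes were. Like the other lists, this one was drawn up with earlier results of these libraries known, so their counts are no independent evidence of direction. Tnfaip3, which encodes A20, the ubiquitin editor that ends TNF receptor signals, was at 2.66, 3.95, 5.87 and 4.88 FPKM in ICI and 9.94, 7.19, 9.14 and 6.89 in Scop. All ICI values were below all Scop values (difference -0.82, SE 0.18, limma's adjusted p = 0.179). Nfkbia, which encodes the NF-kB inhibitor IkBα, was at 28.4, 25.7, 27.8 and 32.2 against 39.3, 36.3, 40.8 and 34.6 FPKM, and Nfkb2, a subunit gene of the non-canonical arm, was at 1.58, 1.73, 1.55 and 1.503 against 1.84, 1.99, 2.57 and 2.34 FPKM. Their differences were -0.39 and -0.29 (limma's adjusted p = 0.161 and 0.276). The neutrophil chemokine gene Cxcl1 was at 2.45, 2.57, 1.57 and 1.86 FPKM in ICI and 4.91, 5.16, 6.16 and 3.98 in Scop. Cxcl2, which encodes a related chemokine, was at 0.258, 0.06995, 0.469 and 0.686 against 2.47, 2.18, 4.39 and 2.51. These 2 had the smallest adjusted p of the list (0.0788 each by limma), with differences of -0.96 and -1.49, on as few as 59 and 3 fragments. Cxcl2 passed without Scop replicate 3 (-1.32, limma's adjusted p = 0.0498), and Cxcl1 without Scop replicate 4 (-1.05, limma's adjusted p = 0.0467). Each passed in only 1 of the 8 fits with 1 library left out. Across those fits limma's adjusted p reached 0.248 for Cxcl2 and 0.310 for Cxcl1. The other non-overlapping genes were Birc3, given above, and the monocyte chemokine gene Ccl2, named after its values were seen. Ier3 and Irf1, which were the most abundant with Nfkbia, had positive differences of 0.34 (SE 0.15) and 0.19 (SE 0.08), with limma's adjusted p = 0.406 and 0.418.

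**Figure D5:**
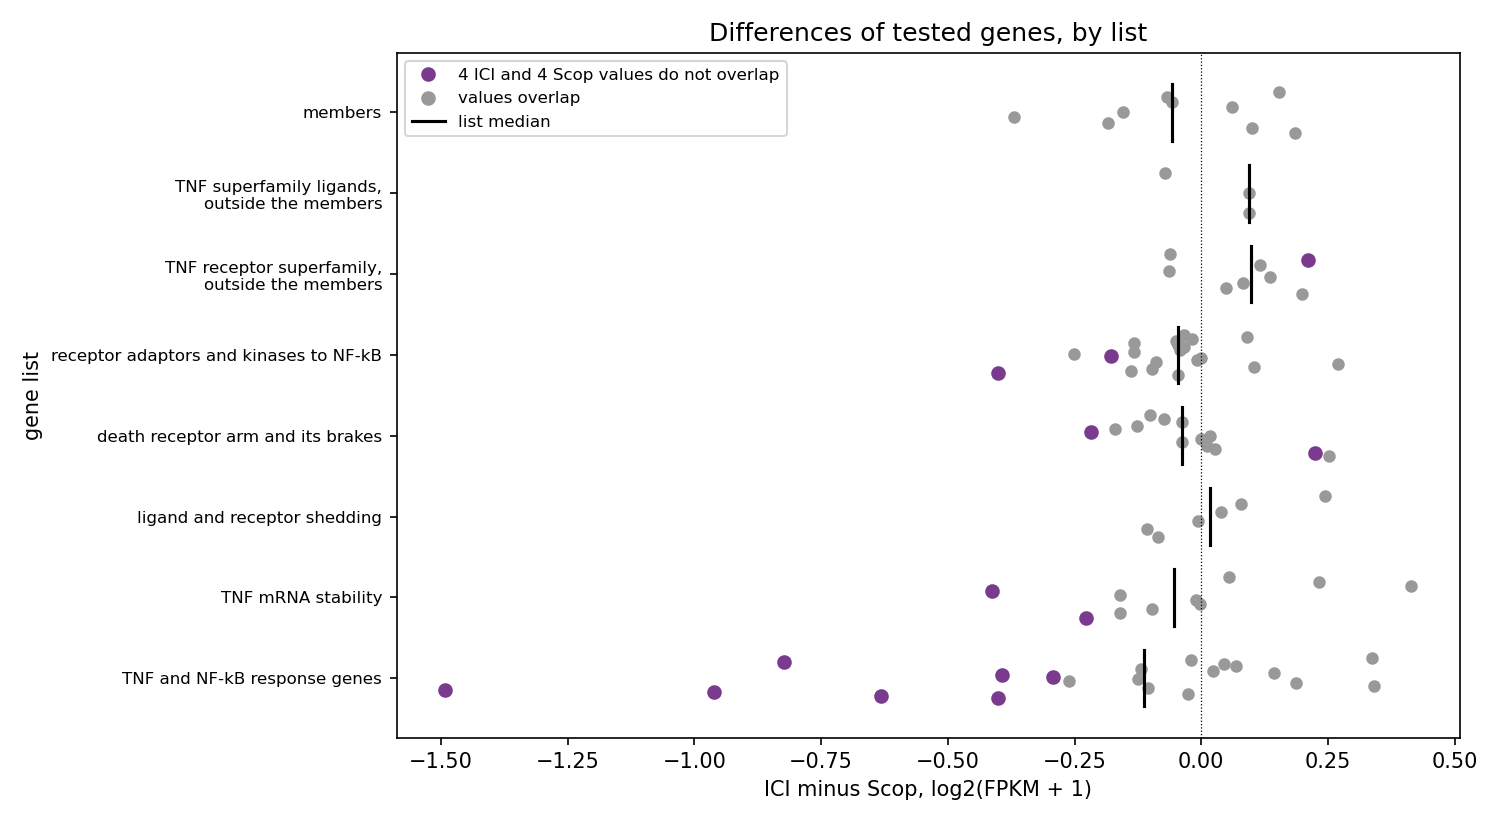
Difference between ICI and Scop on the log2(FPKM + 1) scale of each tested gene, by list, with the list's median as a black line. Purple points are genes whose 4 ICI and 4 Scop values do not overlap: 0 of 9 members, 7 of 20 response genes, and 1 or 2 in 4 of the other lists.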

How the data were processed

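RNA-seq libraries of 8 corneal pools were compared, 4 ICI and 4 Scop, grouped and numbered by their titles. The tools named in the submitters' processing notes are fastp, HISAT2 and HTSeq, with the build mm10. Tool versions, gene annotation and strandedness: not given in the sources used here. All values are FPKM as deposited by the authors in a single table, and no scaling between samples is stated. Whole fragments were recovered from the steps of those values for 99.8% of genes (relative tolerance 5e-13, whole within 0.01), and a factor shared by all 8 libraries would be missed. They serve for depth and for limma-voom. Counting error covers sampling of fragments only.

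Values were moved to log2(FPKM + 1), and the 12100 genes whose mean reached 0.5 FPKM were tested two-sided with limma-trend (limma 3.58.1, R 4.3.3), with Benjamini-Hochberg adjustment over all of them and a threshold of 0.05. It was tested on simulated data. Positions are from RefSeq on GRCm38.p6. The members and gene lists were chosen with earlier results of these data known. Beside the members, the text names of each list the 3 most abundant genes and up to 6 genes without overlap between the groups, and for 4 members the 3 most similar genes. A gene that this rule names is not reported here. Further genes named as ligands, receptors or markers (Ltb, Lta, Fasl, Tnfsf11, Ptprc and the like) were chosen after their values were seen. Alternatives were pseudocounts, filters, scalings, eBayes without trend, the replicate number as a block, limma-voom and leaving out each library.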

Additional observations from a re-analysis of the deposited data

Results flagged for a closer look

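The members, the pathway genes named by rule, the marker genes with a mean of 0.5 FPKM or more and 8 further genes were screened in each group, 172 combinations in all. In 14 of them 1 library lay far from the other 3 by Dixon's gap test, where chance alone gives about 1 in 20. None of the 10 members was among the 14, and Tnf in Scop replicate 1 did not reach the limit.

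In ICI replicate 1, Timp3 was at 81.1 FPKM against 31.0 to 32.6 in the other ICI libraries. The corneal endothelium genes Slc4a11, Col8a1 and Col8a2 were high in the same library, at 41.4, 14.6 and 85.4 FPKM against 14.8 to 16.1, 3.81 to 4.33 and 35.9 to 38.8. Alcam, the other gene of that list, was not, at 47.6 FPKM against 40.6 to 49.6. The part of the endothelial layer in the Timp3 value was not tested. In ICI replicate 4, Krt16 was at 14.4 FPKM against 4.37 to 5.86, S100a8 at 2.98 against 0.389 to 0.644, and Fasl at 0.0137 where the other ICI libraries were listed at 0. That Fasl value was 1 fragment, and with the others at 0 any value above 0 would have been flagged.

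In Scop replicate 3, Kera was at 39.0 FPKM against 163 to 184, Fcer1g at 0.617 against 1.85 to 2.08, and Cxcl2 at 4.39 against 2.18 to 2.51. In Scop replicate 4 the ribosomal RNA loci Gm26917 and AY036118 were at 4936 and 34.3 FPKM, against 689 to 1120 and 3.45 to 6.23 in the other Scop libraries. In Scop replicate 1, Tnfrsf10b was at 4.42 FPKM against 3.77 to 3.84, and Fasl at 0.0774 (6 fragments) against at most 0.0131.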

How the results depend on the processing

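No member passed the adjusted test under any of the 9 alternative settings or with any 1 library left out, and the smallest adjusted p of a member lay between 0.247 (genes of at least 5 FPKM) and 0.490 (without Scop replicate 4), each time for Ltbr. Ltbr stayed negative throughout, at -0.22 to -0.15. Tnf ran from -0.45 (limma-voom on fragments) to -0.23 (pseudocount of 5) over the settings, and these ends are on different scales. On the main scale it ran from -0.47 to -0.18 with 1 library left out. The signs of Tnfrsf19, Tnfrsf21 and Cd40 turned without Scop replicate 3, to -0.089 for Tnfrsf19, 0.0019 for Tnfrsf21 and -0.0017 for Cd40 (the cause was not tested), and their values with 1 library left out ran from -0.089 to 0.16, -0.15 to 0.0019 and -0.0017 to 0.31. Without a filter Tnfrsf1b had a difference of -0.0010 (SE 0.08). Over all genes, calls with 1 library left out ran from 0 to 4 higher and from 0 to 2 lower: without Scop replicate 4, Gm26917, AY036118, Lars2 and Malat1 were higher and Cxcl1 and S100a9 lower, without Scop replicate 3 Cxcl2 was lower, and without Scop replicate 1 Cebpd. With the replicate number as a block 0 genes passed, and 643 higher and 869 lower had an unadjusted p under 0.05. Deviations of same-numbered libraries correlated at 0.29, -0.01, 0.14 and 0.08, and not every library correlated best with its own number. What the numbers stand for is not stated, and these correlations cannot show whether they pair the samples. Fas and Tnfrsf1b rest on under 100 fragments per library.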
